A study of Oryza sativa Japonica Group with 6 samples.

Results

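The rice genome encodes a family of ammonium transporters, membrane proteins that carry ammonium into cells, and their transcripts were followed here in rice plants in which OsSKIPa was raised or lowered. Genes were taken as members when the gene table gave them 1 of 9 symbols, from AMT1-1 to AMT3-3, and a probe set counted when it was assigned to that gene alone. This gave 10 probe sets for 8 of the 9 genes, out of 22436 probe sets with a single gene and 57381 on the array, for 17905 genes in all. The AMT1 class was represented by 3 probe sets and the AMT2 and AMT3 classes by 7. AMT1-1 and AMT3-1 had 2 probe sets each, and the others had 1. The symbols AMT1-2 and AMT1-3 are each listed for the same 2 adjacent genes, with 0 protein-coding genes between them. The synonyms OsAMT1;2 and OsAMT1;3 were used to tell them apart, so that the probe set called AMT1-2 here belongs to LOC4330008. No probe set named for LOC4330007, taken as AMT1-3, was used here.

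Ammonium is a main nitrogen source of rice, which is adapted to flooded soils. Transporters of the AMT1 class are known for high-affinity uptake. In rice AMT1-1 is active in shoots and roots, AMT1-2 is a root gene induced by ammonium, and AMT2 and AMT3 proteins belong to a separate branch of the family. Inside the cell ammonium is joined to glutamate by glutamine synthetase, and glutamate synthase passes the amide nitrogen on.

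Transcripts were measured on 6 Affymetrix rice arrays, 2 for each of 3 groups of Oryza sativa Japonica plants: the line S58S overexpressing OsSKIPa (by the series title, a splicing factor), the line S59R with suppressed OsSKIPa, and untransformed Zhonghua11 as the wild type. All plants were germinated on MS medium, moved to hydroponics as seedlings of 10 days and collected at 1 month. The transgenic seedlings were selected on drugs, hygromycin for S58S and G418 for S59R, so line and drug cannot be told apart, and each transgene is represented by 1 named line. The labels do not give the nitrogen source of the medium. The descriptions call the samples shoots and the growth protocol calls them whole plants. Whether replicates came from separate cultures is not stated beyond the words biological repeat or replicate, so p-values measure the spread between these samples.

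Genes of the root list ranged from PHT1-6 and HMA2, below the array median on every array, to bright ones such as Lsi1, the silicon influx channel of roots and second brightest of the list, which read between 3662.3 and 7418.7. By the brightest probe set of each gene, the brightest of the leaf list, CAB2R of the light-harvesting antenna, read between 29743.8 and 32788.1, and the brightest root-list gene, the aquaporin gene TIP2-2, between 15153.1 and 20353.2. The small-subunit gene RBCS of Rubisco read between 25955.7 and 30989.1. In bulk RNA, a smaller share of root tissue and less transcript per root cell cannot be told apart. Array medians lay between 58.6 and 66.2 intensity units. Overexpression RNA had the highest actin 3'/5' ratio, which rises as RNA breaks down, at 3.43 and 3.73 against 2.75 to 2.89 on the other 4 arrays. The GAPDH ratio, another such sign, did not separate the groups, at 2.19 and 1.89 in overexpression and 1.66 to 1.9 elsewhere. Suppression RNA had the lowest 18S control signal, at 3673.9 and 3885.3 against 4949.6 to 5450.5 elsewhere. Their part in the results was not tested. No probe set was named for OsSKIPa in the tables used, and the levels of OsSKIPa that the labels report as checked by RT-PCR were not used here.

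**Figure D1:**
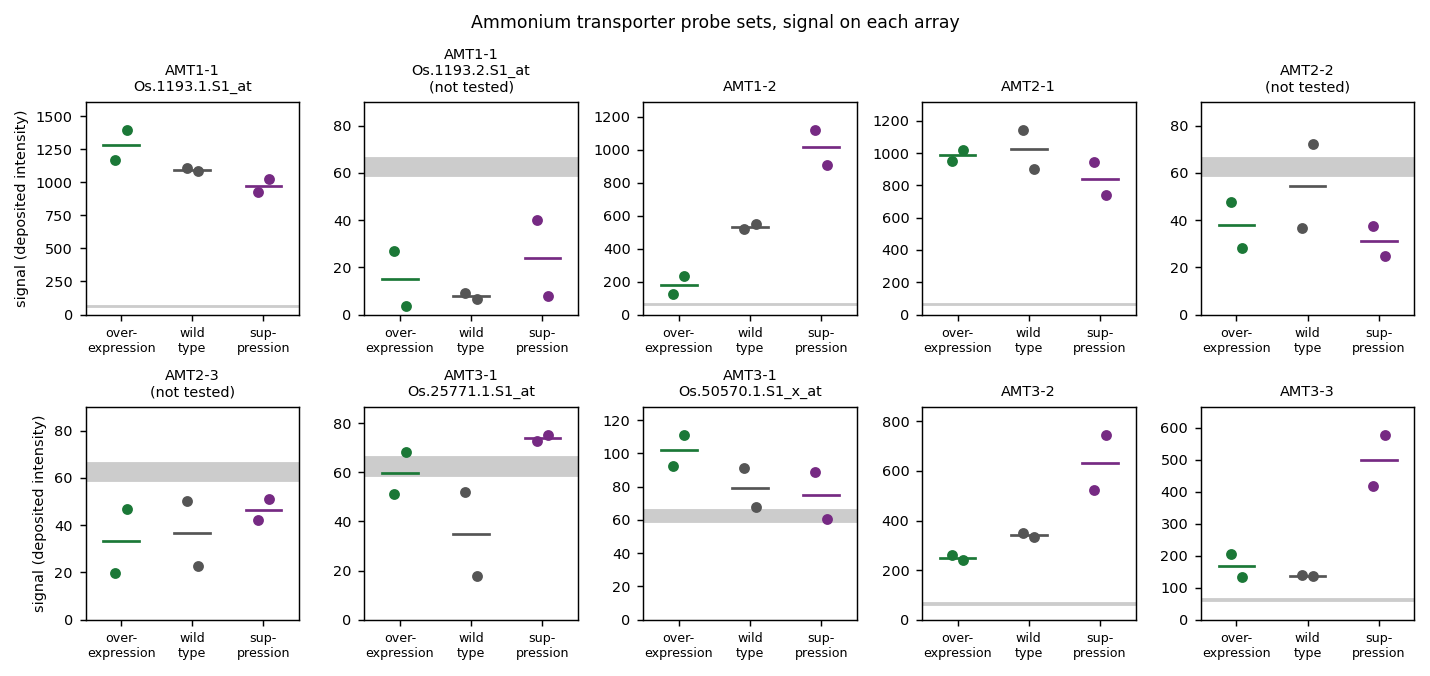
Deposited signal intensity (vertical axes, linear, starting at 0 and scaled separately in each panel) of the 10 ammonium transporter probe sets in overexpression, wild-type and suppression plants. Points are single arrays, bars are the means of 2 arrays and the grey band spans the array medians, 58.6 to 66.2. AMT1-2, AMT3-2 and the brighter AMT1-1 probe set separated the 3 groups without overlap, as did 9.73% of all tested probe sets. AMT3-3 was high in the suppression arrays.

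AMT1-2 had the widest log2 range of group means of the tested members. It read 124.6 and 232 in overexpression plants, 517.8 and 550.8 in the wild type, and 1122.1 and 905.9 in the suppression arrays. The 3 groups did not overlap, with the wild type between the transgenic lines. Between the lines AMT1-2 was 5.83-fold lower in overexpression than in suppression plants, a log2 difference of -2.54 ± 0.27 (SE; limma adjusted p = 0.00242), the 64th largest fall among 30322 tested probe sets. It kept this call whichever single array was left out (-2.98 to -2.10).

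Against the wild type AMT1-2 did not pass in either line. Overexpression plants had a mean of 178.3 ± 75.9 and wild-type plants 534.3 ± 23.3 (SD over 2 arrays each), for a log2 difference of -1.63 (95% interval -2.25 to -1.01; limma adjusted p = 0.196). Without overexpression replicate 2, the brighter of the pair, the difference was -2.07 and passed (adjusted p = 0.0274), and without replicate 1 it was -1.19 (adjusted p = 0.286). In the suppression line the mean was 1014 ± 153 (SD, n = 2) and the log2 difference 0.91 (interval 0.30 to 1.53; limma adjusted p = 0.132). This difference passed in fits on the suppression and wild-type arrays alone (adjusted p = 0.0348) and without either overexpression array (0.0408 without replicate 1 and 0.0448 without replicate 2). Each interval excludes 0 taken singly, while the adjusted p accounts for all probe sets tested.

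The levels of root-preferred marker genes were read beside AMT1-2. Of 17 such genes with a probe set, 2 (PHT1-6 and HMA2) were below the array median on every array and 0 read 0. The summed signal of the list was 27450.7 and 26967.3 in overexpression, 29297.9 and 26820.4 in suppression and 31595.8 and 27667.4 in wild-type plants. Without TIP2-2, which made up most of it, the sum was 7097.5 and 8199.7 in overexpression, 14144.8 and 9683.9 in suppression and 12805.6 and 8587.6 in the wild type. The overexpression arrays were thus lowest, and the suppression and wild-type arrays overlapped. Lsi1 read 3662.3 and 4646.8 in overexpression and 7418.7 and 4743.7 in the wild type (log2 difference -0.52, limma adjusted p = 0.696). Over the 15 tested root genes the median log2 difference was -0.38 between overexpression and wild type, with 4 genes above 0 and 11 below. It was 0.19 between suppression and wild type, with 11 above and 4 below. In each of these comparisons limma called 0 and 3 had an unadjusted p under 0.05, as did 7.12% and 17.8% of all tested probe sets. Between the lines the median was -0.61 and 1 gene was called, 6.67% against 6.56% of all tested probe sets. This was the iron transporter gene IRT1. IRT1 was chosen after its values were seen. It was higher in overexpression (1.36, adjusted p = 0.0199), opposite to AMT1-2. Among the tested root genes, YSL15, NAS1 and IRT2 were above the array median on no overexpression array. They entered the test through the other groups, so the filter itself favoured low overexpression values in the medians. The part of root content in the AMT1-2 values was not tested.

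AMT1-1 (LOC4336365) differed less between groups. Its brighter probe set read 1170.2 and 1397.8 in overexpression, 1105.1 and 1083.6 in wild-type and 925.5 and 1024.6 in suppression plants. The groups again did not overlap, but in the order opposite to AMT1-2. The differences did not pass: 0.22 for overexpression against wild type (95% interval -0.07 to 0.52, limma adjusted p = 0.769), -0.17 for suppression against wild type (-0.46 to 0.13, adjusted p = 0.555) and 0.39 between the lines (0.09 to 0.69, adjusted p = 0.116). The intervals leave room for changes of up to 0.69 on the log2 scale. Its other probe set read between 3.6 and 39.9, below the array median on every array, and was not tested. The probe sets of AMT1-1 therefore could not be checked against each other.

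In the AMT2 class only AMT2-1 (LOC4339064), known in rice as a gene active in roots and shoots, was bright enough to test. It read 953 and 1019 in overexpression, 1144.5 and 901.5 in wild-type and 945.5 and 737.4 in suppression plants. Both transgenic lines overlapped the wild type. The log2 differences were -0.04 for overexpression (95% interval -0.43 to 0.34, limma adjusted p = 0.978), -0.28 for suppression (-0.67 to 0.10, adjusted p = 0.43) and 0.24 between the lines (-0.15 to 0.62, adjusted p = 0.442). AMT2-2 (LOC4327434) read between 24.9 and 72.1 and lay above the array median on 1 array, in the wild type. AMT2-3 (LOC4327433) read between 19.8 and 51 and lay below it on all 6. These genes lie close together on 1 chromosome, with 2 protein-coding genes between them, and no difference between groups was detectable at such signals.

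AMT3-3 (LOC4329628) was the 1 member called against the wild type, and in the suppression line. It read 418.5 and 578.4 in the suppression arrays, 139.7 and 135.8 in the wild type and 205.7 and 133.4 in the overexpression arrays. Suppression plants stood above all other arrays, and overexpression and wild type overlapped. The rise against the wild type was 3.51-fold, from 137.8 ± 2.76 to 498.5 ± 113 (SD, n = 2 each; log2 difference 1.81 ± 0.26, limma adjusted p = 0.0142). The call was lost without suppression replicate 3 (1.58, adjusted p = 0.0803), wild-type replicate 1 (1.83, 0.0761) or wild-type replicate 2 (1.79, 0.0922), with no change of direction. Between the lines AMT3-3 was 2.93-fold lower in overexpression (-1.55 ± 0.26, limma adjusted p = 0.0154), a call lost without overexpression replicate 2 (-1.24, 0.0811) or suppression replicate 3 (-1.32, 0.0768). Both comparisons rest on the same suppression arrays. Overexpression against wild type gave 0.26 (95% interval -0.34 to 0.86, limma adjusted p = 0.875).

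AMT3-2 (LOC4334717) followed AMT1-2 in the order of the groups. Its signal was 260.8 and 238.8 in overexpression, 350 and 333.6 in the wild type and 522.3 and 745.7 in suppression plants, with no overlap between groups. It was 2.48-fold lower in overexpression than in suppression (log2 difference -1.31 ± 0.20, limma adjusted p = 0.01). Without overexpression replicate 2 the difference was -1.25 and did not pass (adjusted p = 0.0666). Against the wild type the values were -0.45 in overexpression (95% interval -0.90 to 0.00128, limma adjusted p = 0.703) and 0.86 in suppression (0.41 to 1.31, adjusted p = 0.0669). The suffix of its probe set (x_at) marks probes that may also match other transcripts, so its signal may not come from AMT3-2 alone.

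The 2 probe sets of AMT3-1 (LOC4324937) were dim, and none of their differences passed. The dimmer one read 51.1 and 68.4 in overexpression, 51.9 and 17.9 in wild-type and 72.8 and 75.2 in suppression plants. Both wild-type values were below their array medians, so this probe set entered the test through the transgenic arrays. The brighter one, also of the type that may match other transcripts, read 92.5 and 111.1, 90.9 and 68, and 88.9 and 60.6 in the same order of groups. Suppression against wild type gave 1.18 (95% interval -0.15 to 2.50, limma adjusted p = 0.339) for the dimmer and -0.09 (-0.94 to 0.75, adjusted p = 0.924) for the brighter. Overexpression against wild type gave 0.87 (-0.46 to 2.197, adjusted p = 0.799) and 0.35 (-0.49 to 1.20, adjusted p = 0.881). Between the lines they read -0.31 (-1.64 to 1.02, adjusted p = 0.802) and 0.45 (-0.40 to 1.29, adjusted p = 0.52).

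**Figure D2:**
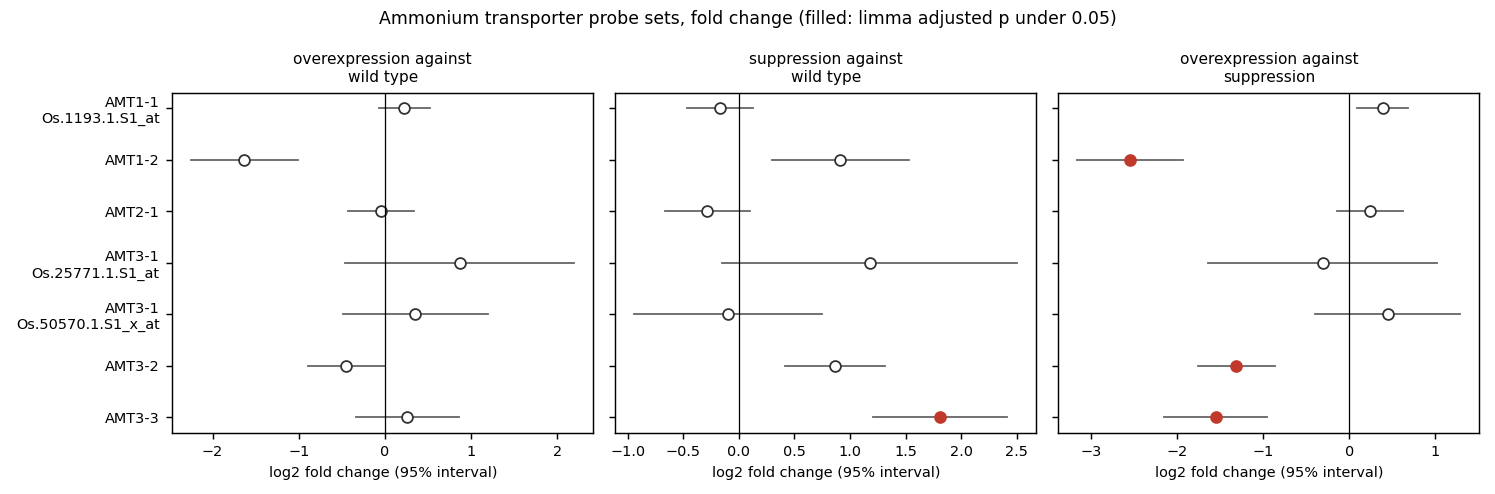
Log2 fold change (horizontal axes) with its 95% interval for the 7 tested ammonium transporter probe sets in the 3 comparisons, from limma on log2 values. Filled points have an adjusted p under 0.05: AMT3-3 in suppression against wild type, and AMT1-2, AMT3-2 and AMT3-3 between the lines.

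Over the family 7 of the 10 probe sets, for 6 genes, were bright enough to test, and the remaining 3 had only dim signals. Overexpression against wild type called 0 of 7 by limma, with 1 (AMT1-2) at an unadjusted p under 0.05, where 0.0495% of all tested probe sets were called and 7.12% had such a p. Suppression against wild type called 1 of 7, AMT3-3, higher, against a background of 2.3% called in either direction and 0.956% called higher. Between the lines 3 of 7 were called, all lower in overexpression, against a background of 6.56% called in either direction and 2.93% called lower. Leaving out overexpression replicate 2 reduced the 3 calls to 1, AMT1-2. In suppression against wild type the count was 0 when suppression replicate 3, wild-type replicate 1 or wild-type replicate 2 was left out, and 2 without either overexpression array. With eBayes run without its variance trend, 0 probe sets were called in the 3 comparisons. The limma adjusted p between the lines was then 0.0621 for AMT1-2, 0.0797 for AMT3-2 and 0.0937 for AMT3-3, and that of AMT3-3 in suppression against wild type 0.116. Arrays of the groups compared stood apart for 4 of 7 probe sets in overexpression against wild type, 5 of 7 in suppression against wild type and 7 of 7 between the lines. Over all tested probe sets the shares without overlap were 38.1%, 48.8% and 53.5%. The 3 groups lay in 1 order without overlap for 3 of 7 probe sets, AMT1-2 and AMT3-2 in one order and AMT1-1 in the other, while 9.73% of all tested probe sets were so ordered, 4.6% as AMT1-2 and 5.13% as AMT1-1.

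Set against each other, the AMT1 class and the joined AMT2 and AMT3 classes each held genes called between the lines beside genes that did not pass. In the comparison between the lines the 2 tested AMT1 genes had -2.54 and 0.39, with a median of -1.08, and 1 was called. The 4 tested AMT2 and AMT3 genes, each by its brightest probe set, ranged from -1.55 to 0.45 with a median of -0.54, and 2 were called. Against the wild type the AMT1 medians were -0.70 in overexpression and 0.37 in suppression, and those of the AMT2 and AMT3 genes 0.11 and 0.38. The AMT2 and AMT3 median in overexpression changed sign without overexpression replicate 1 (-0.02) or wild-type replicate 2 (-0.03). That in suppression was 0.70 with the mean of each gene's probe sets. Medians over all tested probe sets were -0.00532, -0.0151 and 0.00819 for overexpression, suppression and the lines against each other. Leaving out overexpression replicate 1 moved the AMT1 median against the wild type from -0.70 to -0.42. With so few genes in a class no test of the difference was made.

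**Figure D3:**
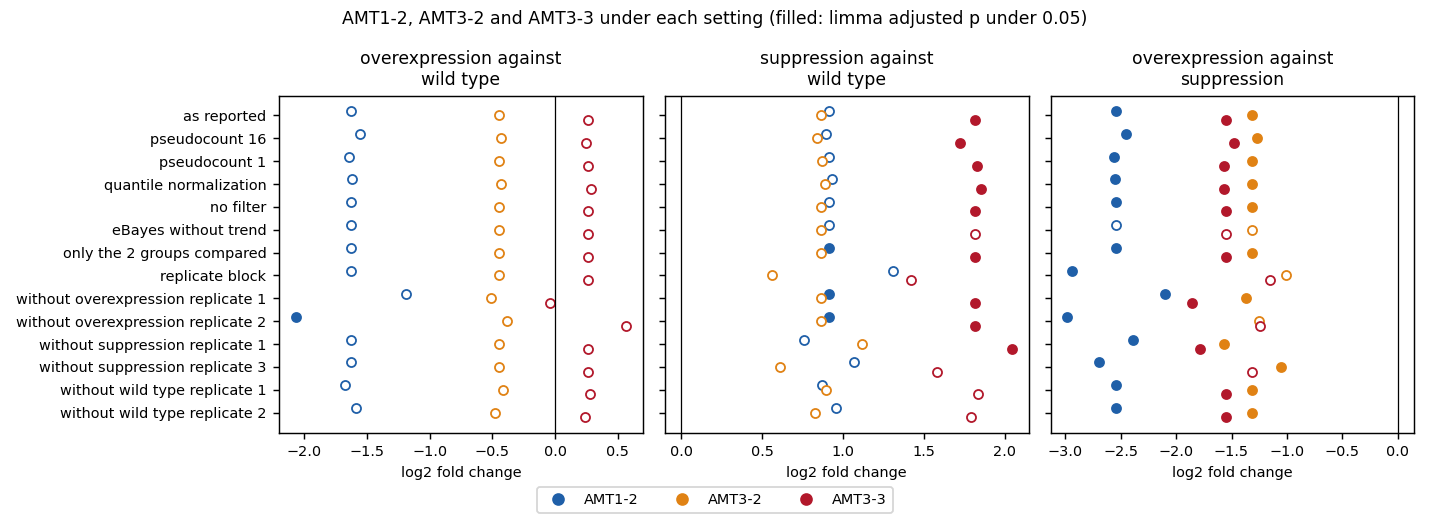
Log2 fold change (horizontal axes) of AMT1-2, AMT3-2 and AMT3-3 in the 3 comparisons, as reported and under each other setting (rows). Filled points have a limma adjusted p under 0.05; between the lines all 3 genes stayed below 0, and only AMT1-2 kept its call without any 1 array.

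For each of AMT1-2, AMT3-2 and AMT3-3 the 10 nearest tested genes, 5 on either side, held 1 called between the lines, lower in overexpression as the transporter was. Over all tested probe sets 6.56% were called and 2.93% called lower. With 10 genes in each set, 1 call is too few to judge against these shares. Their median log2 differences were 0.02, -0.33 and -0.05. The 10 neighbours of AMT3-3 held 0 limma calls in suppression against wild type and ranged from -0.29 to 0.59, where AMT3-3 itself read 1.81.

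Among 2763 tested probe sets of named genes outside the family, those nearest in pattern were found by the root mean square difference of log2 values, each centred on its mean over the 6 arrays. Nearest to AMT1-2 were MT-1-4b, a metallothionein gene (difference 0.485), Q-enzyme, a starch branching enzyme gene (0.504), and NSHB1, a hemoglobin gene (0.539). MT-1-4b read 4097.6 and 4575.6 in overexpression, 11327.4 and 9985.9 in wild-type and 13343.5 and 11404.5 in suppression plants. AMT3-3 was nearest to LAC19, a laccase gene (0.209), PP2C68, a protein phosphatase gene (0.298), and EIL1, of the EIN3-like ethylene-response factors (0.327). AMT3-2 was nearest to OsPCL1, a clock gene (0.155), ura6 (0.186) and OsSPX4, of the SPX proteins of phosphate signalling (0.202). OsPCL1 read 1492.5 and 1331.2 in overexpression, 1941.3 and 2430.5 in wild-type and 3602.2 and 4474.3 in suppression plants. The differences for AMT1-2 were larger than for the others. This measure grows with a gene's own range, which was 2.54 for AMT1-2, 1.81 for AMT3-3 and 1.31 for AMT3-2. The differences therefore cannot show whether the pattern of AMT1-2 is less shared. These genes were picked for their likeness, and the values describe 6 arrays only.

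**Figure D4:**
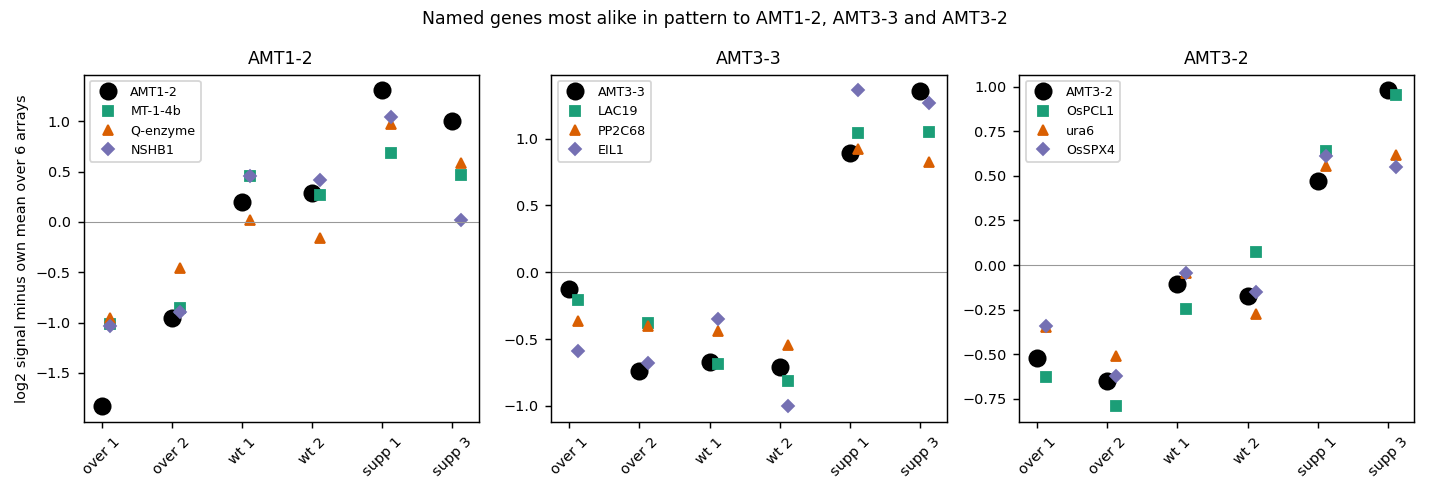
Log2 signal minus its own mean over the 6 arrays (vertical axes) for AMT1-2, AMT3-3 and AMT3-2 (large black circles) and the 3 named genes nearest to each, on each array (over, overexpression; wt, wild type; supp, suppression). AMT1-2 lay lowest on overexpression replicate 1, below its nearest genes, and AMT3-3 and its nearest genes were high on the suppression arrays.

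Among other nitrogen genes, those called were 4 genes of assimilation (GLN1-1, GLN1-2, GLN2 and GLT2) and the regulator NLP3, while no gene of nitrate or urea uptake passed. Of a list of 19 genes with 26 probe sets, 22 probe sets of 17 genes were tested. Between the lines 3 were higher and 2 lower in overexpression, 22.7% against the background of 6.56% (3.63% higher), and 17 did not pass. In suppression against wild type 0 were higher and 2 lower, 9.09% against 2.3% called in either direction and 1.35% called lower, and 20 did not pass. Without the variance trend 0 were called in either comparison. In overexpression against wild type 0 of 22 were called by limma and 3 had an unadjusted p under 0.05. Over all tested probe sets the shares were 0.0495% and 7.12%. The medians over genes, each by its brightest probe set, were -0.07 for overexpression, -0.15 for suppression and 0.14 between the lines.

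Genes of cytosolic glutamine synthetase, the enzyme that takes up ammonium inside the cell, ran in the same direction as AMT1-2. GLN1-2, the form known in rice roots, read 2547.4 and 4035 in overexpression, 4319.6 and 4025.3 in wild-type and 6728.6 and 6437.2 in suppression plants. Suppression plants lay above all others. GLN1-2 was 2.05-fold lower in overexpression than in suppression (-1.04 ± 0.18, limma adjusted p = 0.0184), a call lost without suppression replicate 1 or 3 (-1.37 to -0.71 over all fits without 1 array, adjusted p up to 0.0844). GLN1-1, the cytosolic form active in most organs, was 1.42-fold lower (-0.50 ± 0.08, adjusted p = 0.0138). Its signal was 7439.1 and 7418.3 in overexpression, 8629 and 8101.1 in the wild type and 11038.4 and 10017.9 in suppression. This call was lost without either overexpression array or suppression replicate 1 (-0.57 to -0.43, adjusted p up to 0.0777). Against the wild type GLN1-2 read -0.38 in overexpression and 0.66 in suppression (adjusted p = 0.736 and 0.118), and GLN1-1 -0.17 and 0.33 (0.732 and 0.0864). The GLN1-2 difference in suppression passed in fits without either overexpression array.

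GLT2, an NADH-dependent glutamate synthase gene, ran in the opposite direction. It read 3716.7 and 5396.1 in overexpression, 3234.7 and 3379.1 in wild-type and 1398.2 and 1104.9 in suppression plants. It was 3.6-fold higher in overexpression than in suppression (1.85 ± 0.18, limma adjusted p = 0.00188), and kept that call without any 1 array (1.58 to 2.12). It was 2.66-fold lower in suppression than in the wild type (-1.41 ± 0.18, adjusted p = 0.00826), a call lost without either wild-type array (adjusted p up to 0.0771).

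GLN2, the plastid glutamine synthetase of leaves, gave conflicting probe sets. The dimmer one read 526.5 and 529.3 in overexpression, 427.2 and 413.4 in wild-type and 240.9 and 215.8 in suppression plants. It was 2.3-fold higher in overexpression than in suppression (1.20 ± 0.15, limma adjusted p = 0.00522; 1.12 to 1.28 without 1 array, call kept). It also fell in suppression against wild type (-0.87 ± 0.15, adjusted p = 0.0292), a call lost without any 1 array. The brighter one read between 11996.6 and 15893.3, with -0.01 between the lines (95% interval -0.30 to 0.29, adjusted p = 0.976). NLP3, of the NIN-like factors of nitrate response, was 1.66-fold higher in overexpression than in suppression (0.73 ± 0.12, adjusted p = 0.0144), a call lost without overexpression replicate 1 or either suppression array (0.55 to 0.90, adjusted p up to 0.0637).

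The 6 other listed genes with the smallest unadjusted p in any comparison did not pass. Between the lines NLP1 read 0.61 (limma adjusted p = 0.127, called without overexpression replicate 1), the nitrate reductase gene NIA1 0.73 by its brighter probe set (0.18, called without suppression replicate 1), ferredoxin-dependent glutamate synthase Fd-GOGAT 0.35 (0.11; its brighter probe set 0.04), and the kinase gene CIPK23 0.20 (0.238; its other probe set 0.32). GDH2, a glutamate dehydrogenase gene, read 0.29 in overexpression against wild type (0.75; its other probe set -0.01). GLB, for a PII-type nitrogen sensor, read -0.25 in suppression against wild type (0.202). Leaf genes were read beside these values. Over 10 tested leaf genes the median was -0.02 in overexpression, -0.28 in suppression and 0.23 between the lines. Limma called 0, 0 and 3 of their 19 probe sets in these comparisons, against 0.0495%, 2.3% and 6.56% of all tested probe sets. The 3 called between the lines, 15.8%, were all higher in overexpression, where 3.63% of all tested probe sets were called higher. They were 1 probe set each of CHLH, GLK1 and rca. The other CHLH probe set went the opposite way (-0.64, limma adjusted p = 0.0869), and the other rca probe sets read 0.42 to 0.54. An unadjusted p under 0.05 was found for 0, 8 and 9 of the 19 probe sets, and for 7.12%, 17.8% and 23.1% of all tested probe sets. Some genes count more than once among the 19. The summed leaf signal, over 11 genes with 0 at a signal of 0 and RBCS1 below the median on every array, was 125836 and 135755 in overexpression, 130690 and 138104 in the wild type and 128833 and 111948 in suppression. The part of leaf content in these differences was not tested.

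**Figure D5:**
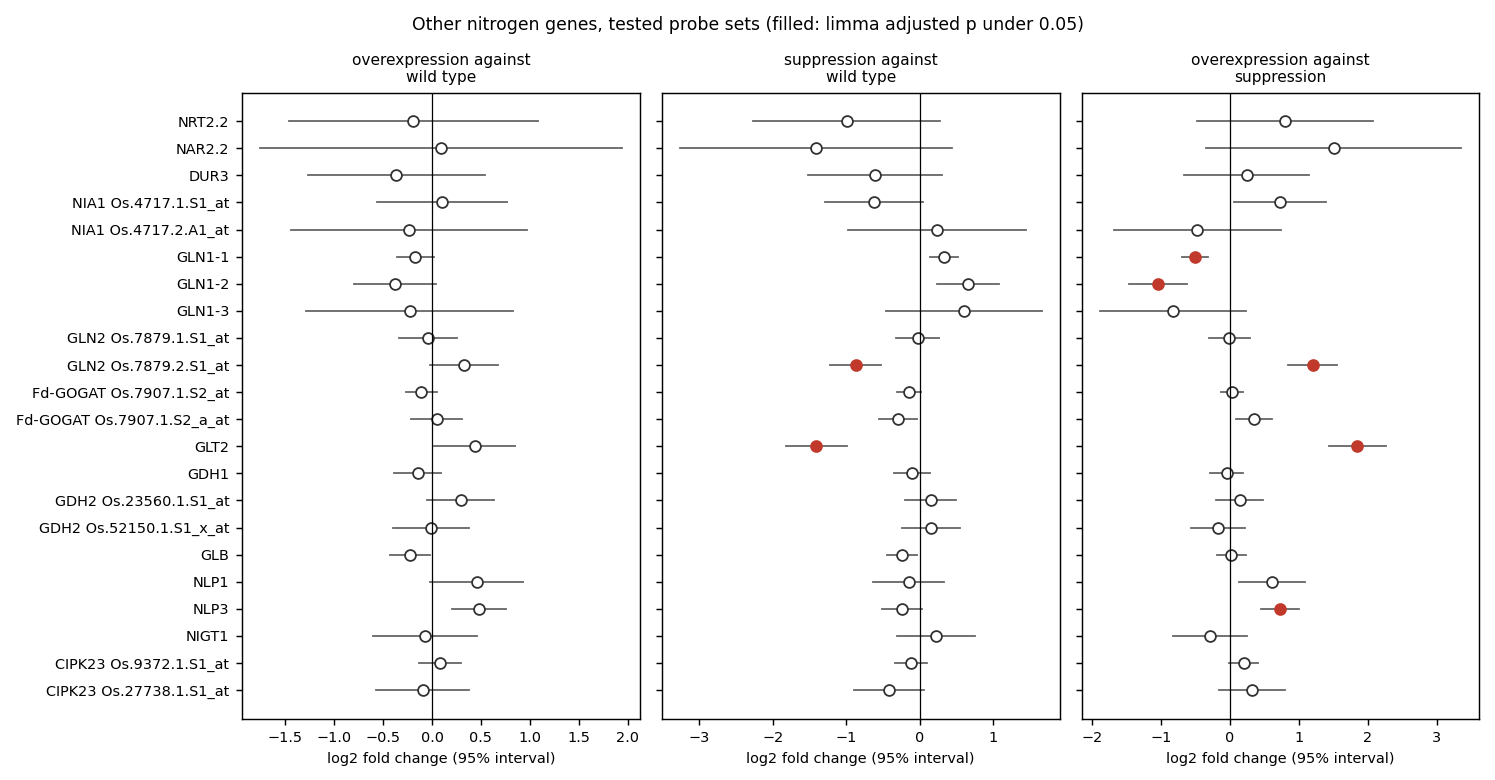
Log2 fold change (horizontal axes) with its 95% interval for the 22 tested probe sets of other nitrogen genes in the 3 comparisons, ordered from uptake through assimilation to regulators. Filled points have a limma adjusted p under 0.05; between the lines GLN1-1 and GLN1-2 were lower and GLT2, NLP3 and 1 of the GLN2 probe sets higher in overexpression.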

How the data were processed

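Deposited values were linear signal intensity, 1 per probe set and array, from cRNA of 6 µg total RNA per the labels' protocols. The summarising software was not given in the sources used. The authors' values had a mean of 500.06, averaged over the 6 arrays, after trimming 2% at either end. Shifts in total RNA per cell are not visible in these values. Array medians differed by at most 1.13-fold and were not rescaled. Arrays give no counts, and 2 per group limit the precision.

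Log2(value + 3.3), 3.3 being the 10th percentile of the table, was tested with limma 3.58.1 (R 4.3.3; lmFit, eBayes with trend, all 6 arrays in 3 groups, 3 residual and 5.2 prior degrees of freedom). The added 3.3 understates changes of dim probe sets. Left out were 123 controls, and 30322 probe sets above their array's median on 2 or more arrays were tested. Tests were two-sided, with Benjamini-Hochberg adjustment over all of them and a threshold of 0.05. The fit was tested on simulated data.

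Names came from the platform's probe table and, for synonyms and gene order only, from a table of assembly ASM3414082v1, where all 17905 genes were found. Besides the 22436 probe sets with 1 gene, 95 had several and 34727 had none listed. The lists held 70 nitrogen, 28 root and 29 leaf names, of which 22, 20 and 12 genes matched. Another 6 matches were dropped because the alias belongs to a different gene, 1 after its values were seen. Members and lists were chosen with earlier results of these data known. The text names every member, each called nitrogen gene and the 6 next by unadjusted p, and the 2 brightest markers per list. Other nitrogen and marker genes were named after their values were seen. Alternatives were pseudocounts of 16 and 1, quantile normalization, no filter, no trend, 2 groups alone, the repeat number as a block, each array left out, and the mean of a gene's probe sets; class medians without single arrays were added after seeing the data.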

Additional observations from a re-analysis of the deposited data

How the results depend on the processing

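Over 21 pairs of a tested transporter probe set and a comparison, 273 alternative values were computed, of which 250 kept their direction and side of the threshold, 13 lost the call, 4 gained one and 6 changed sign. Those that changed sign were uncalled values near 0: AMT2-1 in overexpression against wild type (-0.22 to 0.13 without single arrays), AMT3-3 there (-0.0451 to 0.57), and the brighter AMT3-1 probe set in suppression against wild type (-0.36 to 0.17 without single arrays, 0.13 with the replicate block). Only called values could lose a call, and each had 13 alternatives. Between the lines AMT1-2 lost its call in 1, AMT3-2 in 3 and AMT3-3 in 4. In suppression against wild type AMT3-3 lost its call in 5. The log2 value could not move without the filter or the trend, with 2 groups alone, or without an array of the third group. eBayes without the trend called 0 transporter and 0 nitrogen probe sets in either comparison with calls, where the counts reported were 1 and 2 for suppression against wild type and 3 and 5 between the lines; over all probe sets it called 0, 26 and 70 in place of 15, 698 and 1990. The cause was not tested. With the 2 groups compared alone, 2 transporter probe sets were called in suppression against wild type. With single arrays left out the transporter counts were 0 to 1 for overexpression against wild type, 0 to 2 for suppression against wild type and 1 to 3 between the lines, and the nitrogen counts 0, 0 to 2 and 3 to 5. Over all probe sets they were 5 to 36, 171 to 583 and 463 to 1410, fits with fewer arrays; without the filter 425 and 1255 were called in the last 2 comparisons, where more probe sets were tested. The AMT1 median lay between -0.99 and -0.42, 0.33 and 0.41, and -1.36 and -0.79 without single arrays, in fits that take the lone array of a group to vary as the rest do. With the mean over probe sets the AMT2 and AMT3 median in suppression was 0.70 in place of 0.38. No alternative on the transporters turned the direction of a called value.

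Deviations of arrays with the same repeat number were close to uncorrelated (-0.01, -0.003 and -0.07 over tested probe sets). With 2 arrays per group, and suppression holding repeats 1 and 3, these values cannot show whether such arrays share more than a number. The replicate block gave suppression replicate 3, the only array of that number, a term of its own. Suppression then rested on replicate 1 alone, so this fit does not show the effect of blocking by itself. Between the lines it gave -2.94 for AMT1-2, and -1.01 for AMT3-2 and -1.16 for AMT3-3, which lost their calls. AMT3-3 in suppression against wild type read 1.42 and also lost its call.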
